A study of Mus musculus with 12 samples.

Results

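Cerebral vessels collected 4 h after an injection of lipopolysaccharide (LPS) were compared with cerebral vessels collected 30 min after it, across all genes. The libraries were chosen by their labels alone: the 3 libraries labelled LPS 4 hours and the 3 labelled LPS 30 minutes, which are 6 of the 12 in the series. The other 6 libraries, 3 after PBS and 3 collected 15 min after LPS, are given as levels and entered the same fit. They were also compared with each other to list genes changed at 15 min. All mice were wild type C57BL6, of both sexes and adult (8 to 12 weeks), and carried no transgene or deletion. One intraperitoneal injection delivered either PBS or LPS at 10 mg/kg, prepared from Escherichia coli of serotype O55:B5. Vessels were separated from forebrain by density centrifugation and a mesh after the meninges had been taken off, and every library pooled the vessels of 1 male and 1 female. Full-length cDNA was amplified from low RNA input and sequenced as paired ends.

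LPS is a component of the outer membrane of Gram-negative bacteria that is sensed through CD14 and TLR4. Genes that answer without new protein synthesis, such as those of AP-1, EGR, and NF-kB inhibitors, are called primary response genes, and genes that need proteins made in the meantime, such as interferons, STAT, IRF, and C/EBP factors, are called secondary response genes. In the brain, endothelial cells form the blood-brain barrier with tight junctions and a set of solute and efflux transporters, and Wnt/beta-catenin signaling is known to maintain that state.

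Levels are given as CPM, fragment counts scaled by the library size and its TMM factor, and a log2 fold change is LPS 4 h minus LPS 30 min with its standard error (SE). A gene was called when the edgeR test for a change beyond 1.5-fold gave an adjusted p below 0.05 over all 19150 genes tested. Depth was 21.6 to 22.4 M fragments at 30 min and 18.3 to 21.1 M at 4 h. Between libraries of the same group the median gene varied 2.21 to 2.55 times as much as counting error would give. TMM factors were 1.04 at 30 min and 0.715 to 0.718 at 4 h, and scaling by library size alone lowered all changes by 0.54 on the log2 scale. The interval between the groups also spans 3.5 h of the day, and the time of day of injection and of killing was not given in the sources used here. Changes with the clock, the injection, and the response to LPS therefore cannot be told apart in this comparison.

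Sex-linked transcripts did not have the same balance in the groups, although every library carries the same label of 1 male and 1 female. Xist, the RNA that silences one X chromosome in females, measured 11.6, 15.5, and 20.9 CPM at 30 min and 125, 184, and 134 CPM at 4 h, a change of 3.22 (SE 0.30, adjusted p = 3.04e-08). In the PBS libraries it measured 296, 254, and 371 CPM. The summed level of the Y-linked genes Ddx3y, Uty, Kdm5d, and Eif2s3y was 225 to 227 CPM at 30 min, 275 to 279 CPM at 4 h, and 113 to 151 CPM in PBS, and none of these 4 genes was called between 30 min and 4 h. The groups do not overlap for Xist, so the share of female RNA and the time after LPS cannot be told apart, and its part in the results was not tested.

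Vessel markers were high in both groups. At 30 min the 14 endothelial markers summed to 14368 to 14438 CPM and the 10 pericyte markers to 3912 to 3930 CPM, while the 10 neuronal markers summed to 546 to 554 CPM and the 10 oligodendrocyte markers to 433 to 442 CPM. At 4 h the endothelial sum was 9227 to 9297 CPM and the pericyte sum 3715 to 3822 CPM. The choroid plexus markers, of which Ttr was the largest, summed to 13996 to 14342 CPM at 30 min and 17739 to 18629 CPM at 4 h, so RNA of that tissue was present in both groups. Before TMM scaling Ttr went from 13750 to 12197 CPM, so the higher sum at 4 h depended on the scaling. In bulk RNA a lower level can stem from fewer cells of a type or from less RNA per cell, and these cannot be told apart.

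From 30 min to 4 h, 3229 genes were called higher (16.9% of those tested) and 2255 were called lower (11.8%). Changes over 4-fold were called for 1265 genes higher and 365 lower, and changes over 16-fold for 346 higher and 60 lower. The median change over all genes tested was -0.04, with 5% of the genes below -1.43 and 5% above 2.40. The 3 libraries of one group did not overlap the 3 of the other for 12923 genes (67.5%), and 5462 of the 5484 called genes had no overlap. With library size only, 1917 genes were higher and 6931 lower, so the share of called genes that were higher moved from 58.9% to 21.7%.

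**Figure D1:**
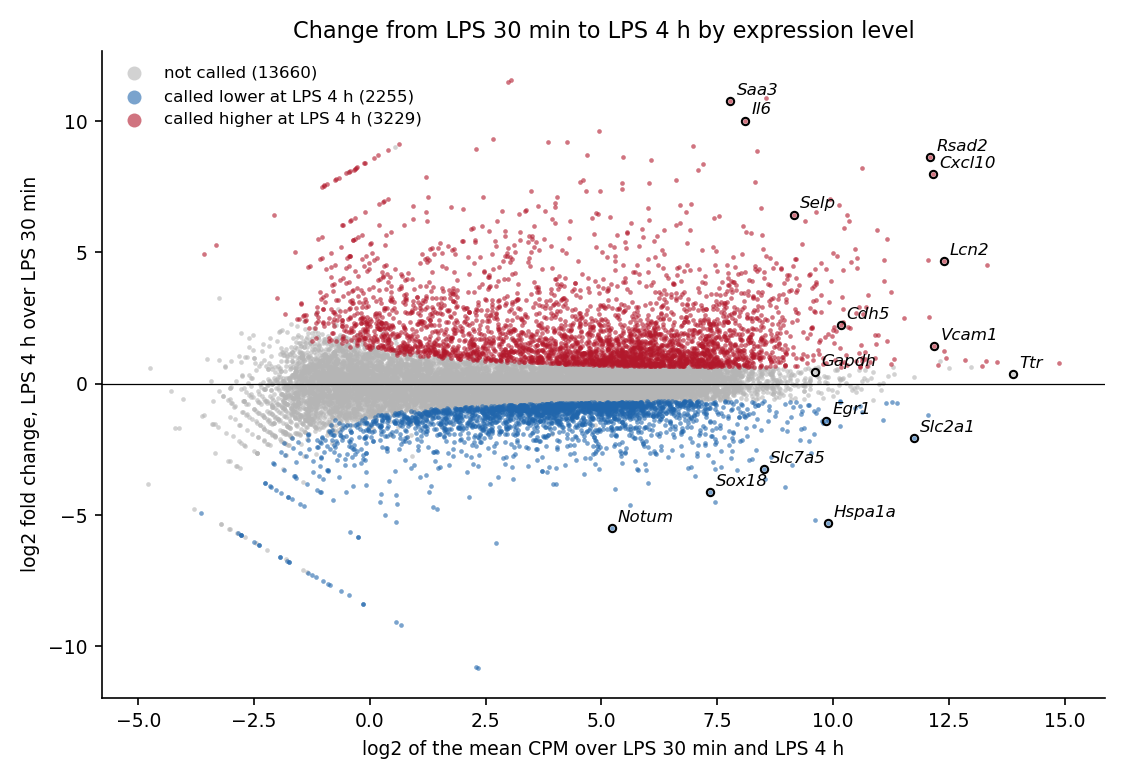
Change of each gene from 30 min to 4 h (vertical axis, log2 fold change) against its mean level over both groups (horizontal axis, log2 of CPM), with genes called higher and lower in colour. The 3229 genes called higher reach larger changes than the 2255 called lower; 6 genes with no count in either group are not drawn.

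The called genes took a large share of each library. Genes called higher held 23.3% to 23.4% of the fragments at 30 min and 52.9% to 53.1% at 4 h, and genes called lower held 18.0% to 18.1% at 30 min and 5.11% to 5.21% at 4 h. On the TPM scale, which corrects for transcript length and has the same total in every library, the metallothionein Mt2 averaged 1581 at 30 min and 27844 at 4 h, and the iron-chelator carrier Lcn2 averaged 758 and 13030. Slc2a1, the glucose transporter GLUT1 of the barrier, averaged 2599 TPM at 30 min and 421 TPM at 4 h. Ptgds, which makes prostaglandin D2, averaged 12888 and 3759 TPM and was chosen after its values were seen. The largest gain of fragments fell to the lincRNA model AC160336.1, from 895 to 14150 CPM before TMM scaling. It too was chosen after its values were seen, and its assignment is uncertain.

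Interferon-stimulated genes rose together. All 32 listed effectors were called higher, with a median change of 4.66 and a range of 2.39 to 8.87, against a median of -0.04 over all genes. Their summed level was 1329 to 1342 CPM in PBS, 1288 to 1383 CPM at 15 min, 1416 to 1446 CPM at 30 min, and 39473 to 39726 CPM at 4 h. The levels at 30 min were therefore close to those of the PBS libraries, and those at 4 h stood apart. All 32 were still called with library size only.

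Promoters are shown for 2 of these effectors, Rsad2 and Ifit1, and for the interferon-inducible chemokine Cxcl10. Rsad2 and Cxcl10 were among the largest gains of fragments, and Ifit1 rose less than either. Each is the run of 250 bases before the RefSeq start (GRCm38.p6), written 5′ to 3′ on the strand of the gene. Capitals mark matches on either strand to the interferon-stimulated response element core GAAANNGAA, which 8.56% of all 32851 RefSeq promoters of 300 bases hold, or to a kB site, which 8.46% hold. Overlapping matches run together.
Rsad2: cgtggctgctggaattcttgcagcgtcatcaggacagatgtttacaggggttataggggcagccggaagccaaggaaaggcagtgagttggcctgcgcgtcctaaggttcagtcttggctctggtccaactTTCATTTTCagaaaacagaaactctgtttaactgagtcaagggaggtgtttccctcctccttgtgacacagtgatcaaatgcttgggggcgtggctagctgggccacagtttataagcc
Ifit1: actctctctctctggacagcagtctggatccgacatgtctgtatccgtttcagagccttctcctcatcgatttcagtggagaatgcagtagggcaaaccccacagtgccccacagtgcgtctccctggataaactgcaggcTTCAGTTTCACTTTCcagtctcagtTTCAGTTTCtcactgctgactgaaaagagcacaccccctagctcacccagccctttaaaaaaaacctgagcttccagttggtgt
Cxcl10: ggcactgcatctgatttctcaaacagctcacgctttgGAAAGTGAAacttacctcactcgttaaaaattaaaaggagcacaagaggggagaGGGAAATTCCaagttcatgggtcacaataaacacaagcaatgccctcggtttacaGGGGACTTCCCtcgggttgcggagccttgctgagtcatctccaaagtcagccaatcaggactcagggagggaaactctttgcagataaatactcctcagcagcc
The Rsad2 promoter (chr12:26456453-26456702, minus strand) holds 1 response element core, 119 to 111 bases before the start. The Ifit1 promoter (chr19:34640639-34640888, plus strand) holds 3 cores between 109 and 76 bases before the start, of which the distal pair overlap. The Cxcl10 promoter (chr5:92348890-92349139, minus strand) holds 1 core 213 to 205 bases before the start and 3 kB matches, at 159 to 150, 104 to 95, and 103 to 94 bases. A match is a description of these letters only. Shares of promoters were not compared between genes that rose and fell, because only 69.1% of the tested genes matched a promoter by symbol.

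Rsad2, which encodes the antiviral enzyme viperin, measured 20.8, 23, and 22.3 CPM at 30 min and 8733, 8729, and 8615 CPM at 4 h (8.62, SE 0.05, adjusted p = 5.45e-32). Its mean was 26.3 CPM in PBS. Ifit1, which binds viral RNA, measured 60.2, 62.1, and 66.8 CPM at 30 min and 1981, 2008, and 1962 CPM at 4 h (4.98, SE 0.04, adjusted p = 3.55e-29). Both genes were high in each LPS 4 h library, with no overlap. Mx1, an antiviral GTPase, went from 1.38 ± 0.17 to 650 ± 10.1 CPM (mean ± SD, n = 3) and had the largest change of the list, 8.87 (SE 0.07). Bst2, which tethers budding virus, had the smallest, from 97.8 ± 0.47 to 512 ± 18.1 CPM (2.39, SE 0.04). Isg15, a ubiquitin-like modifier, rose by 4.14 (SE 0.04). Ifit3 and Ifit3b are near-identical and share reads, so their split values are uncertain.

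Guanylate-binding proteins and immunity-related GTPases, which attack the membranes of intracellular microbes, were also called higher in 16 of 16 genes (median 4.36, range 3.14 to 7.10). Gbp2 measured 98.0, 97.1, and 102 CPM at 30 min and 4431, 4537, and 4466 CPM at 4 h (5.50, SE 0.05, adjusted p = 2.28e-27). Gbp5 went from 161 ± 4.28 to 4221 ± 29.4 CPM (4.71, SE 0.04). The low Gbp11 (0.23 ± 0.18 CPM at 30 min) had the largest change, 7.10 (SE 0.27). Some genes of this family are close copies, and reads may have been split among them.

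RNA of most genes of MHC class I antigen presentation rose, and that of MHC class II genes largely did not pass the test. Of 20 class I and immunoproteasome genes, 18 were called higher (median 2.54) and none lower. Nlrc5, the activator of class I transcription, measured 19.5, 21.7, and 17.7 CPM at 30 min and 690, 692, and 707 CPM at 4 h (5.15, SE 0.05, adjusted p = 3.74e-28). Tap1, the peptide transporter, rose by 4.46 (SE 0.04) and the immunoproteasome subunit Psmb8 by 3.36 (SE 0.04). H2-K1, which already stood at 873 ± 6.81 CPM at 30 min, reached 3152 ± 27.2 CPM (1.85, SE 0.02). Calr (-0.07) and Pdia3 (-0.15), chaperones of the loading complex, were not called.

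In the class II and costimulation list 4 of 11 tested genes were called higher (median 0.13), and the median turned to -0.41 with library size only. Of those 4, Cd274, Cd80, and Cd86 encode ligands of regulatory receptors on T cells and not class II chains. Cd274, which encodes PD-L1, measured 16.1, 14.3, and 14.3 CPM at 30 min and 1933, 1992, and 1919 CPM at 4 h (7.03, SE 0.07, adjusted p = 1.83e-27). Cd80 rose by 2.25 and Cd86 by 2.08. Cd74, the class II invariant chain, went from 51.9 ± 1.31 to 87.0 ± 3.24 CPM (0.74, SE 0.05, adjusted p = 0.0026), and it was not called with library size only or with limma. The class II genes H2-Aa (0.13), H2-Ab1 (0.27), and H2-Eb1 (-0.13) and their activator Ciita (-0.26) did not pass the test.

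**Figure D2:**
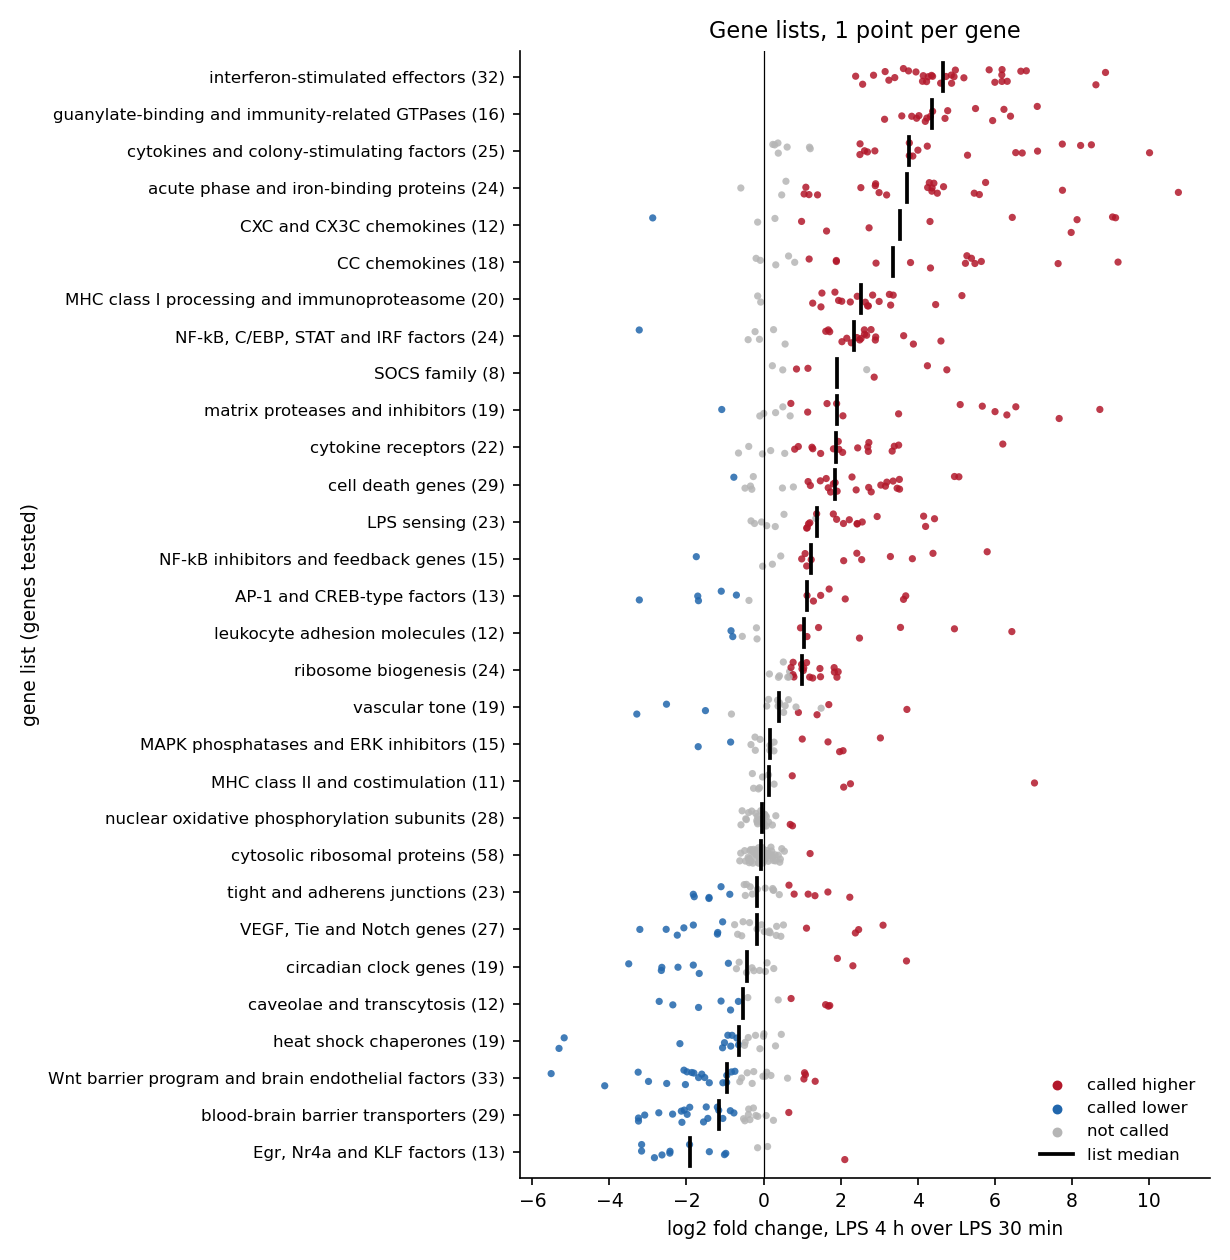
Log2 fold change from 30 min to 4 h (horizontal axis) of every tested gene in 30 of the gene lists (rows, with the number of genes tested), with called genes in colour and the median of each list as a line. The interferon-stimulated and guanylate-binding lists lie wholly to the right (medians 4.66 and 4.36), and the barrier transporters mostly to the left (median -1.16).

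Chemokines rose in most members. Of 12 tested CXC and CX3C chemokines 9 were called higher and 1 lower (median 3.53), and of 18 CC chemokines 13 were called higher and none lower (median 3.37). Cxcl10, which attracts T cells through CXCR3, measured 37.7, 35.2, and 34.8 CPM at 30 min and 9016, 9125, and 9068 CPM at 4 h (7.98, SE 0.04, adjusted p = 1.74e-32), against a PBS mean of 1.96 CPM. It was thus raised at both times, and the groups did not overlap. Cxcl9 (9.05, SE 0.11) and Cxcl11 (8.13, SE 0.10), which share that receptor, averaged 0.47 and 0.96 CPM at 30 min and 251 and 271 CPM at 4 h.

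The neutrophil attractants differed in how much of their level was present at 30 min. Cxcl1 measured 1124, 1120, and 1120 CPM at 30 min and 3512, 3449, and 3484 CPM at 4 h (1.63, SE 0.04, adjusted p = 8.31e-18). Its PBS mean was 1.43 CPM. Cxcl2 went from 205 ± 5.98 to 1365 ± 14.4 CPM (2.74, SE 0.03), and Cxcl5 from 0.21 ± 0.14 to 18.4 ± 1.81 CPM (6.45, SE 0.31). Cxcl3 had no count at 30 min and 131 at 4 h, at least 70.4-fold higher with a floor of 3 counts over the group.

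Cxcl12, which holds CXCR4-bearing cells at the vessel wall, was the chemokine that was called lower. It measured 541, 531, and 543 CPM at 30 min and 73.5, 74.0, and 72.5 CPM at 4 h (-2.88, SE 0.03, adjusted p = 2.59e-27). Its PBS mean was 663 CPM, so the LPS 4 h libraries were the low ones. Cxcl14 (0.30) and Cxcl17 (-0.15) were not called.

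Among CC chemokines, Ccl2, the main monocyte attractant, measured 14, 12, and 15.2 CPM at 30 min and 685, 696, and 686 CPM at 4 h (5.65, SE 0.05, adjusted p = 8.53e-28). Ccl5 went from 0.64 ± 0.08 to 129 ± 5.42 CPM (7.64, SE 0.12) and Ccl7 from 12.4 ± 0.97 to 174 ± 5.99 CPM (3.81, SE 0.08). Ccl20, a ligand of CCR6, had 3 counts at 30 min and 1228 at 4 h, a ratio of 659 (95% counting interval 225 to 3202). Ccl8 (0.65), Ccl25 (0.32), Ccl27a (-0.08), and Ccl28 (-0.19) were among the 5 not called.

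Cytokines and colony-stimulating factors were called higher in 18 of 25 tested genes, with none lower (median 3.78). The promoter of Il6 is shown because Il6 had the largest change among them.
Il6: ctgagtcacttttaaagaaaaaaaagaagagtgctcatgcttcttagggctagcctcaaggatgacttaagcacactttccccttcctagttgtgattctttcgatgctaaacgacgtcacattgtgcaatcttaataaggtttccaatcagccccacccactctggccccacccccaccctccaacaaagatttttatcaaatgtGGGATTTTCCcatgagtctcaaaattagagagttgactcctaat
The run is the 250 bases before the RefSeq start (chr5:30012864-30013113, plus strand, GRCm38.p6), and the capitals mark its 1 kB match, 44 to 35 bases before the start. Il6, a cytokine of fever and the acute phase, measured 0.30, 0.69, and 0.58 CPM at 30 min and 544, 563, and 536 CPM at 4 h (10.01, SE 0.08, adjusted p = 4.45e-25). It had no count in the PBS and 15 min libraries. Csf3, the growth factor of neutrophils, measured 10.1, 10.8, and 10.8 CPM at 30 min and 3212, 3136, and 3164 CPM at 4 h (8.23, SE 0.04, adjusted p = 7.27e-33). Lif, a cytokine of the Il6 family, went from 0.90 ± 0.19 to 196 ± 4.93 CPM (7.75, SE 0.10).

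Il1rn, the antagonist of the IL-1 receptor, went from 0.36 ± 0.10 to 134 ± 3.04 CPM (8.51, SE 0.12), while Il1b itself went from 21 ± 0.74 to 136 ± 5.92 CPM (2.70, SE 0.07). Tnf was one of the 7 that were not called. It measured 23.9, 22.6, and 20.6 CPM at 30 min and 27.4, 27, and 24.9 CPM at 4 h (0.24, SE 0.14, adjusted p = 1), and its PBS mean was 0.11 CPM. Its groups did not overlap, but the change was under the fold that the test asks for. Ifnb1 (1 count at 30 min and 4 at 4 h) and Csf2 (2 and 32) were too low to be tested.

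Cytokine receptors followed, with 17 of 22 called higher and none lower (median 1.88). Ackr1, a chemokine-binding receptor of venules, measured 151, 148, and 150 CPM at 30 min and 1581, 1546, and 1578 CPM at 4 h (3.39, SE 0.03, adjusted p = 1.64e-28). Il6st, the shared signaling chain for Il6 and Lif, rose from 269 ± 1.63 to 1041 ± 9.32 CPM (1.95, SE 0.02), and Osmr, a receptor chain of oncostatin M, rose by 2.70. Il1r2, a decoy receptor for IL-1, had the largest change, 6.21. Ifnar1 (-0.03), Ifngr1 (0.55), and Lifr (-0.65) did not pass the test.

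In a list of microbial sensors and their adaptors 16 of 23 genes were called higher and none lower (median 1.38), against 12 and 1 with library size only. The list holds Toll-like and NOD receptors for ligands other than LPS. Cd14, the co-receptor, measured 76.7, 75.8, and 75.3 CPM at 30 min and 1353, 1315, and 1383 CPM at 4 h (4.15, SE 0.04, adjusted p = 6.27e-27). Tlr4, the receptor, went from 7.18 ± 0.57 to 38.6 ± 2.17 CPM (2.43, SE 0.12), and Tlr2, which senses bacterial lipoproteins, from 21 ± 0.41 to 453 ± 3.99 CPM (4.44, SE 0.05). Myd88, the adaptor, rose by 2.95 (SE 0.04). The adaptors Ticam1 (0.30) and Ticam2 (-0.05) and the kinases Irak1 (-0.24) and Irak4 (0.08) did not pass the test. Tlr6, Tlr7, Tlr8, and Ly96 were called but lost the call in at least 1 setting other than scaling.

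Factors of the NF-kB, C/EBP, STAT, and IRF families were called higher in 18 of 24 genes and lower in 1 (median 2.35). All 5 NF-kB subunit genes rose, from 1.61 for Rel to 2.79 for Relb. Nfkb1 measured 87.4, 84.5, and 84.0 CPM at 30 min and 481, 477, and 483 CPM at 4 h (2.49, SE 0.03, adjusted p = 1.1e-24). Irf7, which drives interferon genes, measured 69.4, 67.5, and 67.0 CPM at 30 min and 1670, 1627, and 1657 CPM at 4 h (4.60, SE 0.04, adjusted p = 6.83e-29). Stat3 rose by 2.42 (SE 0.03), and Stat5b (-0.40) and Stat6 (-0.22) were not called. Cebpd, a C/EBP factor of the acute phase, went from 379 ± 2.39 to 1694 ± 75 CPM (2.16, SE 0.03), from a PBS mean of 31.5 CPM.

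Irf1 did not pass the test. This early interferon-response factor measured 553, 543, and 545 CPM at 30 min and 788, 813, and 815 CPM at 4 h (0.56, SE 0.03, adjusted p = 1), from a PBS mean of 78.4 CPM. Most of its level at 4 h was thus present at 30 min, and the change stayed within 1.5-fold.

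Genes listed here as early or primary response genes split into those that fell, those that stayed, and those that rose. Whether they answer without new protein synthesis in these vessels was not tested. In the EGR, NR4A, and KLF list 10 of 13 genes were called lower and 1 higher (median -1.92). Nr4a1, an orphan nuclear receptor, measured 1254, 1256, and 1268 CPM at 30 min and 203, 195, and 210 CPM at 4 h (-2.64, SE 0.03, adjusted p = 1.5e-25). Egr1 measured 1346, 1341, and 1329 CPM at 30 min and 495, 506, and 513 CPM at 4 h (-1.41, SE 0.03, adjusted p = 4.94e-19). Both were still above their PBS means of 39.1 and 36.4 CPM at 4 h.

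Egr3 fell by 2.83 (SE 0.04) on the log2 scale. Klf4, an endothelial factor, fell from 345 ± 2.41 to 38.4 ± 1.5 CPM (-3.17, SE 0.04), below its PBS mean of 162 CPM. Klf2, a flow-induced factor, fell from 1083 ± 11.5 to 549 ± 13 CPM (-0.98, SE 0.02), with a PBS mean of 347 CPM. Klf6 was the member called higher, from 281 ± 7.2 to 1213 ± 15.2 CPM (2.11, SE 0.02). Nr4a3 (0.10) and Klf9 (-0.15) did not pass the test.

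AP-1 and CREB-type factors went both ways, with 7 of 13 called higher and 5 lower (median 1.13). Fos measured 441, 431, and 406 CPM at 30 min and 137, 129, and 131 CPM at 4 h (-1.69, SE 0.04, adjusted p = 7.76e-19). Fosb (-3.22, SE 0.06), Jun (-1.71, SE 0.03), Atf3 (-1.10), and Junb (-0.70, SE 0.03, adjusted p = 0.000425) fell too. Other subunits were higher at 4 h. Fosl1 went from 1.79 ± 0.64 to 23.2 ± 3.25 CPM (3.69, SE 0.27), Batf from 3.92 ± 0.22 to 48.6 ± 1.45 CPM (3.63, SE 0.12), and Fosl2 rose by 1.48. Jund (-0.38) was the one member not called.

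Among 20 other early response genes 12 were called higher and 4 lower (median 1.03), against 7 and 4 with library size only. Btg2, an antiproliferative gene, fell from 1300 ± 15.9 to 455 ± 15.2 CPM (-1.51, SE 0.03), Ccn1, a matrix-bound signal, fell from 1025 ± 14.9 to 229 ± 6.28 CPM (-2.16, SE 0.03), and Ier2 (-1.26) and Arc (-2.26) also fell. The related Ccn2 rose instead, from 184 ± 2.01 to 706 ± 12.4 CPM (1.94, SE 0.03). Myc measured 3.12, 2.11, and 3.71 CPM at 30 min and 77.4, 70.2, and 78.8 CPM at 4 h (4.66, SE 0.14, adjusted p = 5.17e-18). The kinase Pim1 went from 35.8 ± 2.53 to 688 ± 16.9 CPM (4.26, SE 0.05). Their PBS means were 1.87 and 23.1 CPM.

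Feedback inhibitors differed between lists. Of 15 NF-kB inhibitors and feedback genes 11 were called higher and 1 lower (median 1.24), against 7 and 1 with library size only. Nfkbia, which encodes I-kappa-B-alpha, measured 1283, 1295, and 1269 CPM at 30 min and 2581, 2487, and 2571 CPM at 4 h (0.99, SE 0.02, adjusted p = 1.35e-14), from a PBS mean of 209 CPM. Tnfaip3, which encodes the deubiquitinase A20, went from 524 ± 9.02 to 1137 ± 6.57 CPM (1.12, SE 0.03). Nfkbia and Tnfaip3 were among those that lost the call.

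Nfkbiz, a co-activator needed by secondary response genes, measured 699, 661, and 684 CPM at 30 min and 661, 678, and 670 CPM at 4 h (-0.02, SE 0.03, adjusted p = 1). Its groups overlapped, and its PBS mean was 17.1 CPM. Nfkbid fell from 40.7 ± 1.49 to 12.2 ± 0.83 CPM (-1.75, SE 0.09), the one fall in the list. Tnip3, a binding partner of A20, had the largest rise, 5.80 (SE 0.43), from 0.20 ± 0.07 CPM.

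Of 8 SOCS genes, which block cytokine receptor kinases, 5 were called higher and none lower (median 1.91), against 3 and none with library size only. Socs3 measured 44.5, 42.1, and 38.9 CPM at 30 min and 1158, 1119, and 1114 CPM at 4 h (4.76, SE 0.05, adjusted p = 7.15e-27), and Socs1 rose by 4.25 (SE 0.09). Among 15 MAPK phosphatases and ERK inhibitors 5 were called higher and 2 lower (median 0.16), against 4 and 5 with library size only (median -0.37). With TMM scaling the shares were 33.3% higher and 13.3% lower, against 16.9% and 11.8% of all genes. Dusp1, which switches off p38 and JNK, fell from 1010 ± 11.5 to 312 ± 12.3 CPM (-1.70, SE 0.03), while Dusp2 rose from 9.33 ± 0.49 to 76.3 ± 5.38 CPM (3.03, SE 0.09). Among 7 mRNA decay regulators 1 was called higher and 2 lower, shares of 14.3% and 28.6% against 16.9% and 11.8% of all genes. Zfp36, which destabilizes AU-rich mRNAs, fell from 1874 ± 20.7 to 986 ± 11.2 CPM (-0.93, SE 0.02), Zfp36l2 fell by 0.92, and the RNase gene Zc3h12a rose by 1.58.

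Acute phase and iron-binding proteins were called higher in 21 of 24 tested genes, with none lower (median 3.73). Lcn2 measured 414, 404, and 400 CPM at 30 min and 10384, 10238, and 10371 CPM at 4 h (4.67, SE 0.06, adjusted p = 6.21e-26), from a PBS mean of 6.20 CPM. Saa3, a serum amyloid A protein, measured 0.09, 0.30, and 0.36 CPM at 30 min and 453, 418, and 448 CPM at 4 h (10.76, SE 0.11, adjusted p = 1.64e-27). Ptx3, a pentraxin, rose by 7.76 (SE 0.29) and Hp, which encodes haptoglobin, by 5.60 (SE 0.08). Hpx (0.58), C4b (0.47), and Ftl1 (-0.59) were not called. Saa1 and Saa2 are close copies, so their separate values are uncertain.

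**Figure D3:**
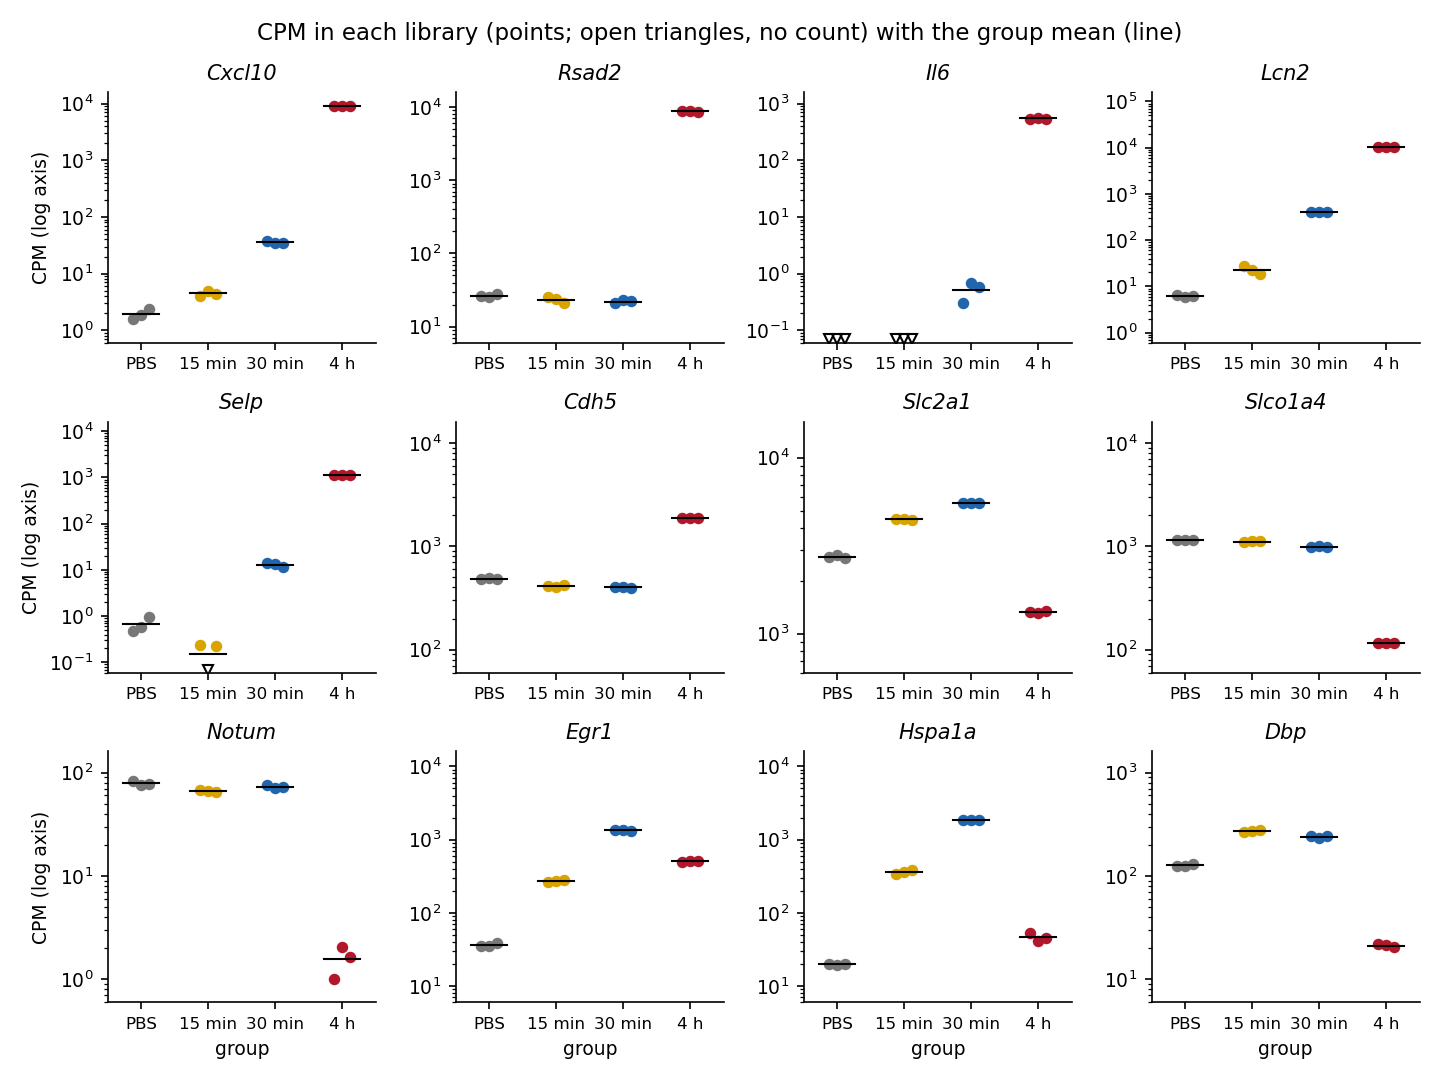
CPM (vertical axes, log scale) of 12 named genes in each of the 12 libraries by group (horizontal axes), with 1 point per library, an open triangle for no count, and a line at the group mean. Cxcl10 lies at 34.8 to 37.7 CPM and at 9016 to 9125 CPM at 30 min and 4 h, and Slc2a1 at 5500 to 5538 CPM and at 1311 to 1337 CPM.

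Adhesion molecules that slow or arrest leukocytes were higher, and some constitutive ones lower. In that list 7 of 12 were called higher and 2 lower (median 1.04), against 5 and 4 with library size only. Selp, which encodes P-selectin, measured 14.1, 13.2, and 11.6 CPM at 30 min and 1118, 1125, and 1145 CPM at 4 h (6.44, SE 0.06, adjusted p = 3.66e-28). Vcam1 went from 2525 ± 26.3 to 6788 ± 28.1 CPM (1.43, SE 0.02), Icam1 from 1745 ± 28.2 to 3390 ± 34.8 CPM (0.96, SE 0.02), and Sele from 195 ± 2.52 to 426 ± 7.78 CPM (1.13, SE 0.03). Their PBS means were 334, 61.9, and 0.42 CPM. Icam1 and Sele were not called with library size only. Icam2, a constitutive ligand, fell from 126 ± 1.88 to 72.7 ± 1.94 CPM (-0.80, SE 0.04), and Cd99l2 fell by 0.84.

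Inflammatory enzymes were called higher in 15 of 19 tested genes and lower in 3 (median 2.51). Ptgs2, which encodes COX-2, measured 908, 873, and 863 CPM at 30 min and 5015, 5001, and 5008 CPM at 4 h (2.51, SE 0.02, adjusted p = 1.26e-27), and Ptges, the synthase downstream of it, rose by 3.06 (SE 0.04). Acod1, which makes itaconate, went from 0.50 ± 0.07 to 85.9 ± 0.31 CPM (7.42, SE 0.16). Of the 3 called lower, Nos3, the endothelial nitric oxide synthase, measured 615, 604, and 581 CPM at 30 min and 269, 246, and 258 CPM at 4 h (-1.22, SE 0.03, adjusted p = 3.38e-16), while Nos2, the inducible one, rose by 1.61. Ptgis, the prostacyclin synthase, fell by 1.09 (SE 0.05), and Ptgs1, which encodes COX-1, fell by 1.01 but was not called with limma at a pseudocount of 10.

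Of 19 genes of vascular tone 4 were called higher and 3 lower (median 0.41), shares of 21.1% and 15.8% that lie near the 16.9% and 11.8% of all genes. The median turned to -0.13 with library size only. Adm, which encodes the vasodilator adrenomedullin, went from 8.80 ± 0.93 to 116 ± 6.23 CPM (3.72, SE 0.11). Ramp2, a subunit of its receptor, measured 441, 442, and 435 CPM at 30 min and 46.5, 45.5, and 43.0 CPM at 4 h (-3.29, SE 0.03, adjusted p = 7.54e-27). Ligand and receptor subunit thus moved in opposite directions, and Calcrl, the other subunit, was not called (0.41). Edn1 (0.36) was not called either.

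Coagulation and fibrinolysis genes were called higher in 10 of 19 tested genes and lower in 1 (median 0.89), against 8 and 6 with library size only. Plaur, the urokinase receptor, went from 149 ± 4.23 to 776 ± 2.44 CPM (2.38, SE 0.03). Thbd, the anticoagulant thrombomodulin, was the member that fell, from 391 ± 6.71 to 235 ± 8.72 CPM (-0.73, SE 0.03, adjusted p = 3.15e-05). F3, which encodes tissue factor, was not called (-0.37), nor was Vwf (-0.48).

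Matrix proteases and inhibitors were called higher in 13 of 19 tested genes and lower in 1 (median 1.90). Adamts4, an aggrecanase, measured 3.94, 2.71, and 2.64 CPM at 30 min and 639, 613, and 646 CPM at 4 h (7.67, SE 0.09, adjusted p = 9.08e-26). Mmp3 went from 0.12 ± 0.12 to 51.6 ± 2.71 CPM (8.72, SE 0.24), and the inhibitor Timp1 from 1.54 ± 0.30 to 79.1 ± 1.74 CPM (5.68, SE 0.13). Timp4 fell by 1.08. Mmp8 (6.01) is also a neutrophil granule gene.

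Transporters of the blood-brain barrier fell as a group. Of 29 genes 18 were called lower and 1 higher, with a median of -1.16, and the summed level went from 13662 to 13698 CPM at 30 min to 5009 to 5068 CPM at 4 h. Slc2a1 measured 5500, 5506, and 5538 CPM at 30 min and 1324, 1311, and 1337 CPM at 4 h (-2.06, SE 0.02, adjusted p = 4.4e-27). Its PBS mean was 2735 CPM, so the LPS 4 h libraries lay below both. Slc7a5, which carries large neutral amino acids, measured 652, 673, and 644 CPM at 30 min and 70.6, 69.1, and 68.0 CPM at 4 h (-3.25, SE 0.03, adjusted p = 1.25e-27). Slco1a4, an organic anion carrier, measured 980, 1002, and 990 CPM at 30 min and 116, 117, and 117 CPM at 4 h (-3.08, SE 0.02, adjusted p = 9.3e-29).

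Mfsd2a, the lipid carrier that keeps transcytosis low, fell from 184 ± 3.96 to 28.0 ± 1.81 CPM (-2.72, SE 0.04). Of the efflux pumps, Abcb1a, which encodes P-glycoprotein (-1.16, SE 0.02), and Abcg2 (-0.77, SE 0.03) fell. The transferrin receptor Tfrc (-1.98, SE 0.04) and the iron exporter Slc40a1 (-3.25) fell as well. Slc16a1 (-0.35), Slc3a2 (0.07), and Lrp1 (-0.20) were among the 10 not called. Insr, the insulin receptor, was the member called higher (0.65, SE 0.03, adjusted p = 0.0107), but not without LPS 30 min replicate 2 (0.63, adjusted p = 0.0816) or without the filter on low counts. With library size only 25 of the 29 were called lower and none higher.

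Junction genes went both ways, with 6 of 23 called higher and 6 lower (median -0.16). Both shares were 26.1%, against 16.9% higher and 11.8% lower over all genes. The counts went down to 4 higher and to 5 lower in at least 1 alternative each. Cldn5, the main claudin of the barrier, measured 1267, 1267, and 1273 CPM at 30 min and 480, 472, and 473 CPM at 4 h (-1.42, SE 0.02, adjusted p = 5.46e-21), and its PBS mean was 2362 CPM. Ocln (-1.41, SE 0.03), Jup (-1.82, SE 0.04), and Pecam1 (-0.88, SE 0.02) fell likewise. Cdh5, the cadherin of endothelial adherens junctions, measured 402, 401, and 399 CPM at 30 min and 1889, 1888, and 1892 CPM at 4 h (2.24, SE 0.02, adjusted p = 1.9e-26). The tight junction gene Cldn5 and the adherens junction gene Cdh5 thus moved in opposite directions, both without overlap. F11r, which encodes JAM-A, rose by 1.67 (SE 0.03), and Tjp1 (-0.35) was not called. With library size only 3 junction genes were higher and 12 lower.

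Genes of caveolae and transcytosis were called lower in 6 of 12 and higher in 4 (median -0.53). Cav1, the coat protein of caveolae, fell from 289 ± 1.83 to 89.7 ± 3.69 CPM (-1.69, SE 0.03) and Cavin2 from 272 ± 4.40 to 41.8 ± 2.63 CPM (-2.71, SE 0.04). Cavin3 rose from 119 ± 3.39 to 392 ± 23 CPM (1.72, SE 0.04). Plvap, the diaphragm protein of leaky vessels, was not called (0.38, SE 0.09).

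Wnt signaling genes and brain endothelial factors were called lower in 19 of 33 and higher in 4 (median -0.95), against 24 and 1 with library size only. Notum, a secreted Wnt inhibitor that is itself a Wnt target, measured 75.6, 71.2, and 72.1 CPM at 30 min and 1.00, 2.06, and 1.64 CPM at 4 h (-5.51, SE 0.10, adjusted p = 7.21e-22). The Wnt target genes Axin2 (-1.69, SE 0.07) and Apcdd1 (-1.53, SE 0.03) also fell, and so did Tcf7 (-3.25). Lef1 was not called (-0.62, SE 0.04, adjusted p = 0.199) and neither was Ctnnb1, which encodes beta-catenin (0.04). The receptor Fzd4 rose by 1.09 (SE 0.03) but was not called with library size only, while Lrp5 (-1.41), Tspan12 (-1.06), Adgra2 (-2.03), and Reck (-0.83), its partners, fell.

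Sox18, an endothelial transcription factor, measured 302, 314, and 302 CPM at 30 min and 19.1, 16.6, and 17.1 CPM at 4 h (-4.12, SE 0.04, adjusted p = 5.68e-27). Sox17 fell by 2.99 (SE 0.04), whereas Sox7 was not called (0.62). The PBS means of Sox18 and Sox17 were 361 and 432 CPM, so the 30 min level was closer to PBS than the 4 h level was. Of the other factors, Fli1 (-2.07), Foxq1 (-1.60), and Foxf2 (-0.95) fell. Erg (1.06), Lmo2 (1.05), and Foxo1 (1.34) rose, although Erg (0.52) and Lmo2 (0.51) were not called with library size only.

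In the VEGF, Tie, and Notch list 8 of 27 genes were called lower and 4 higher (median -0.17), against 14 and 3 with library size only (median -0.71). With TMM scaling the shares were 29.6% lower and 14.8% higher, against 11.8% and 16.9% of all genes. Angpt2, the antagonist ligand of TIE2, measured 18.9, 18.7, and 15.2 CPM at 30 min and 147, 158, and 148 CPM at 4 h (3.10, SE 0.07, adjusted p = 5.56e-20). Tek, which encodes TIE2, measured 354, 373, and 360 CPM at 30 min and 89.5, 84.0, and 85.8 CPM at 4 h (-2.07, SE 0.03, adjusted p = 5.88e-23). The ligand was high and the receptor low at 4 h. Kdr, the main VEGF receptor, fell by 1.19 (SE 0.03), and Flt1 (0.13) and Vegfa (0.02) were not called. Of the Notch ligands, Dll4 (63.3 ± 4.98 CPM at 4 h against 145 ± 4.55 CPM) and Jag2 (-2.53) fell, while Dll1 rose by 2.47 (SE 0.05). Of the target genes Hey1 (-2.24) and Hey2 (-1.06) fell, and Hes1 (-0.17) and Heyl (0.15) were not called.

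Heat shock chaperones were lower at 4 h, with 10 of 19 called lower and none higher (median -0.65). The promoter of Hspa1a is shown because this gene had the largest fall among them.
Hspa1a: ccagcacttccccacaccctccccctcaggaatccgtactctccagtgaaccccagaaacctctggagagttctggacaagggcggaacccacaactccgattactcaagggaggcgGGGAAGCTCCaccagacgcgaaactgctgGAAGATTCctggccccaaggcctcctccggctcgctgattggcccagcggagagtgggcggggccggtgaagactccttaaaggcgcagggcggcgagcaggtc
The run is the 250 bases before the RefSeq start (chr17:34972157-34972406, minus strand, GRCm38.p6). Capitals mark 1 kB match, 133 to 124 bases before the start, and 1 match to the heat shock element core GAANNTTC, 104 to 97 bases before it, a core that 7.86% of all RefSeq promoters of 300 bases hold. Hspa1a, an inducible HSP70, measured 1851, 1849, and 1834 CPM at 30 min and 52.5, 41.8, and 46.0 CPM at 4 h (-5.31, SE 0.05, adjusted p = 1.44e-27), against a PBS mean of 19.8 CPM. Hspa1b fell by 5.17 (SE 0.05), but the copies share most of their sequence and their split is uncertain. The co-chaperone Dnajb1 (-2.17, SE 0.04) and the constitutive Hspa8 (-0.69, SE 0.02) fell. Hsp90aa1 (-0.21), Hspd1 (-0.49), and Bag3 (0.31) were not called.

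Metallothioneins, which bind zinc and copper, and glucocorticoid targets did not move as one. In the joint list 11 of 21 genes were called higher and 3 lower (median 0.88), against 8 and 6 with library size only. Mt2 measured 303, 313, and 313 CPM at 30 min and 8322, 8151, and 7949 CPM at 4 h (4.72, SE 0.04, adjusted p = 2.99e-29), and Mt1 rose by 3.90 (SE 0.04). Tsc22d3, which encodes the glucocorticoid-induced protein GILZ, fell from 542 ± 7.30 to 158 ± 5.87 CPM (-1.78, SE 0.03). Fkbp5 (0.51) and Sgk1 (0.06) were not called. Pdk4 went from 16.8 ± 1.74 to 165 ± 5.55 CPM (3.30, SE 0.06).

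Clock genes were called lower in 7 of 19 and higher in 3 (median -0.44), against 12 and 3 with library size only. With TMM scaling the shares were 36.8% lower and 15.8% higher, against 11.8% and 16.9% of all genes. Dbp, an output factor of the clock, measured 242, 233, and 245 CPM at 30 min and 21.8, 21.4, and 20.6 CPM at 4 h (-3.50, SE 0.04, adjusted p = 1.25e-25). Its PBS mean was 127 CPM. Per2 fell by 2.65 (SE 0.07), and Per1 was not called (-0.25). Arntl, the activating partner of CLOCK, rose from 6.99 ± 1.34 to 34.8 ± 1.57 CPM (2.32, SE 0.11), close to its PBS mean of 31.7 CPM. Nfil3, which opposes Dbp at shared sites, rose by 3.71 (SE 0.12).

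Genes already changed at 15 min were followed as a list, since the comparison of LPS 15 min with PBS shares no library with the comparison of LPS 4 h with LPS 30 min. At 15 min 633 genes were called higher (3.31% of those tested) and 167 lower (0.872%). Of the 633 raised early, 73 (11.5%) were called higher and 98 (15.5%) lower from 30 min to 4 h (median -0.17), against 16.9% and 11.8% of all genes. As a share of the genes called at 4 h, these were 2.26% of those higher and 4.35% of those lower. The largest rises among them were those of Cxcl10, AA467197, Ccl2, Ccl11, and Lcn2, and the largest falls those of Hspa1a, Hspa1b, Dbp, Myh1, and Slc7a5. AA467197 went from 0.21 ± 0.10 to 20.4 ± 3.90 CPM (6.61, SE 0.34). With library size only 51 of the 633 were higher and 305 lower.

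Of the 167 genes lowered at 15 min, 54 (32.3%) were called higher and 49 (29.3%) lower from 30 min to 4 h (median 0.04). Over all genes these shares were 16.9% and 11.8%. The counts of 54 and 49 became 44 and 75 with library size only, and the median turned to -0.50. The 54 and 49 genes made up 1.67% of all genes called higher and 2.17% of all called lower. Selp was lowered at 15 min and rose by 6.44 later, and the interferon-inducible Trim30b rose by 7.34 (SE 0.19). The neutrophil gene S100a9, also lowered at 15 min, rose by 5.76 (SE 0.11). The early falls of Selp, Trim30b, and S100a9 lay at low levels. Selp averaged 0.67 CPM in PBS and 0.15 CPM at 15 min, Trim30b 0.79 and 0.29, and S100a9 1.22 and 0.33. Eln, which encodes elastin, measured 698, 676, and 683 CPM at 30 min and 57.0, 53.8, and 54.4 CPM at 4 h (-3.64, SE 0.03, adjusted p = 3.59e-28). Aplnr, the apelin receptor, fell by 3.21 (SE 0.25). Marker sums also differed between PBS and 15 min. Smooth muscle markers summed to 3801 to 3838 CPM in PBS and 2579 to 2631 CPM at 15 min. Neuronal markers went the other way, from 583 to 603 CPM to 850 to 877 CPM. The part of tissue make-up in both 15 min lists was not tested.

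**Figure D4:**
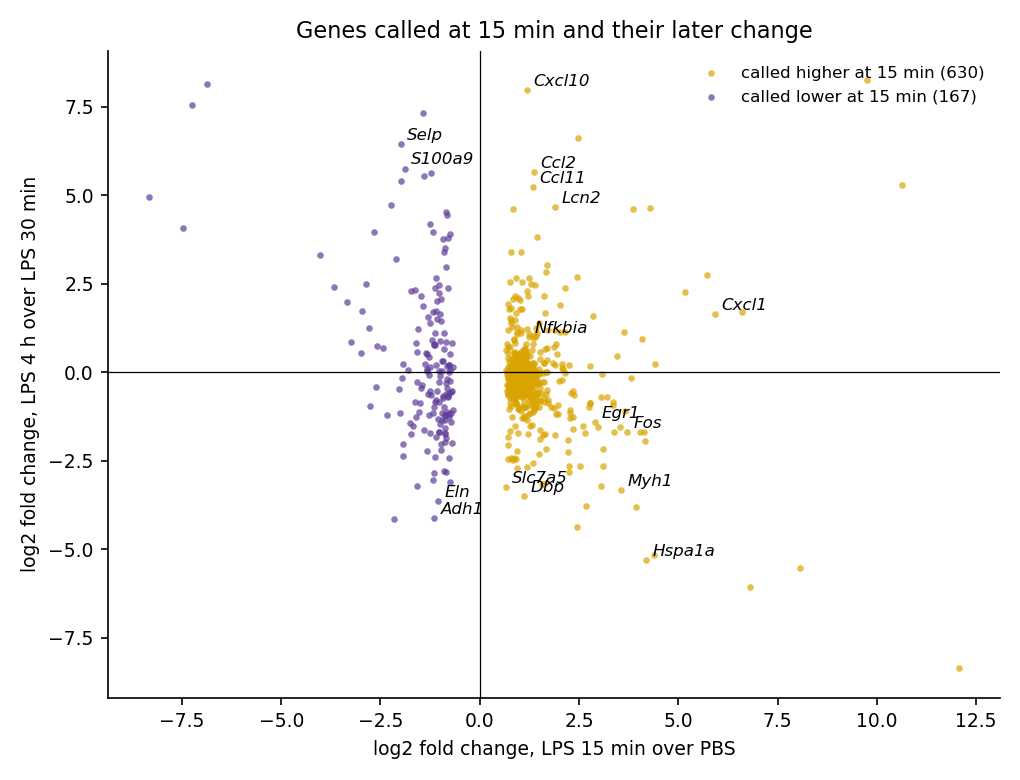
Log2 fold change from LPS 30 min to LPS 4 h (vertical axis) against that from PBS to LPS 15 min (horizontal axis) for genes called higher or lower at 15 min, 1 point per gene. Genes raised early lie on both sides of 0 (73 called higher and 98 lower later), and 3 of the 633 had no count at 30 min or 4 h and are not drawn.

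Apart from genes already given, the largest rises included Il19, Slfn4, Bpifb1, Lipf, Ubd, and Dmbt1. Slfn4, a Schlafen gene of myeloid cells, measured 0.30, 0.47, and 0.40 CPM at 30 min and 723, 770, and 743 CPM at 4 h (10.87, SE 0.08, adjusted p = 3.37e-29). Il19, a cytokine of the IL-10 family, had no count at 30 min and 682 at 4 h, at least 366-fold higher with a floor of 3 counts over the group. Lipf had 1 count at 30 min and 542 at 4 h, a ratio of 873 (95% counting interval 156 to 34554). Dmbt1 had 1 and 418 counts, a ratio of 673 (120 to 26663). Such intervals cover counting error only.

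The largest falls included Fgfbp3, Notumos, Exoc3l2, BC048644, Pllp, Hspa12b, Car5a, and Adh1. Fgfbp3, a binding protein of fibroblast growth factors, measured 2.08, 14.2, and 13.1 CPM at 30 min and 0 in all 3 LPS 4 h libraries. It was at least 139-fold lower, but its level varied widely among the LPS 30 min libraries (SE 2.57, adjusted p = 0.00264). Hspa12b, a chaperone of endothelial cells, measured 333, 338, and 341 CPM at 30 min and 17.4, 12.9, and 15.0 CPM at 4 h (-4.49, SE 0.05, adjusted p = 8.09e-26). Its PBS mean was 335 CPM, so the 30 min libraries were at the PBS level. Pllp fell by 4.61 (SE 0.07). Notumos fell by 6.08 (SE 0.26) and lies antisense to Notum, and since the library kit does not mark strand, reads from this pair cannot be told apart. BC048644 and Car5a also overlap on opposite strands, so their separate falls are uncertain too.

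Markers of blood cells rose as well. All 8 tested neutrophil markers were called higher (median 5.32), and their sum went from 8.52 to 10.5 CPM at 30 min to 235 to 239 CPM at 4 h, with 7.12 to 8.86 CPM in PBS. Ly6g and Stfa2l1 were too low to be tested. S100a9 measured 2.21, 1.42, and 1.43 CPM at 30 min and 92.1, 88.6, and 94.7 CPM at 4 h (5.76, SE 0.11, adjusted p = 3.17e-22), and S100a8, its partner, rose by 5.22 (SE 0.19). Monocyte markers were called higher in 5 of 6 genes (median 4.07), and their sum went from 73.1 to 83.2 CPM to 197 to 206 CPM. Ly6c2 (0.22) was the exception. Lymphocyte markers were called in neither direction (6 tested). The part of these cells in the rises of cytokine and receptor genes was not tested.

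Vessel and brain cell markers moved less uniformly. Of 14 endothelial markers 7 were called lower and 3 higher (Cdh5, Esam, and Erg), of which Esam (0.12) and Erg (0.52) were not called with library size only. Their sum was 14368 to 14438 CPM at 30 min and 9227 to 9297 CPM at 4 h. Slc2a1, Slco1a4, and Cldn5 are in this list as well as in the barrier lists. Pecam1, Cdh5, and Esam are also in the junction list, and Erg is in the Wnt list. Flt1, Kdr, Tek, and Tie1 are in the VEGF, Tie, and Notch list. The markers are therefore not independent of those lists. The other markers called lower were Pecam1 (-0.88), Kdr (-1.19), Tek (-2.07), and Egfl7 (-2.55). Flt1 (0.13), Tie1 (-0.36), Emcn (-0.21), and Ly6c1 (-0.20) were not called. Pericyte markers were called lower in 3 of 10 genes and none of 8 smooth muscle markers was called, against 6 and 3 called lower with library size only. In at least 1 other alternative only 1 pericyte marker was called lower. Endothelial markers called higher, lower, and not called thus stood beside the falls of barrier genes, and the part of cell number in those falls was not tested.

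Microglial markers were called lower in 7 of 12 genes (11 with library size only) and none higher (median -1.03). In at least 1 other alternative only 4 were called lower. Their sum was 201 to 214 CPM at 30 min and 132 to 134 CPM at 4 h. Gpr34, a microglial receptor, had 166 counts at 30 min and 3 at 4 h, 34.3-fold lower (95% counting interval 11.5 to 168). Of 10 astrocyte markers 2 were called higher, Gja1 (2.10) and Gfap (0.92), and Gjb6 fell by 1.21. These shares, 20% higher and 10% lower, lie near the 16.9% and 11.8% of all genes. Gfap was not called with library size only. Erythroid markers summed to 4437 to 4663 CPM at 30 min and 6941 to 7306 CPM at 4 h, and 3 of 5 were called higher, none of them with library size only.

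Skeletal muscle genes stood apart in the LPS 30 min libraries. All 8 were called lower from 30 min to 4 h (median -2.55). Their sum was 188 to 204 CPM at 30 min, 26.3 to 36.1 CPM at 4 h, 13.2 to 19.2 CPM in PBS, and 13.4 to 17.1 CPM at 15 min. Myh1, a muscle myosin, measured 24.0, 23.6, and 24.4 CPM at 30 min and 3.47, 1.40, and 2.39 CPM at 4 h (-3.33, SE 0.22, adjusted p = 7.13e-11). The part of muscle RNA in the falls of other genes was not tested.

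**Figure D5:**
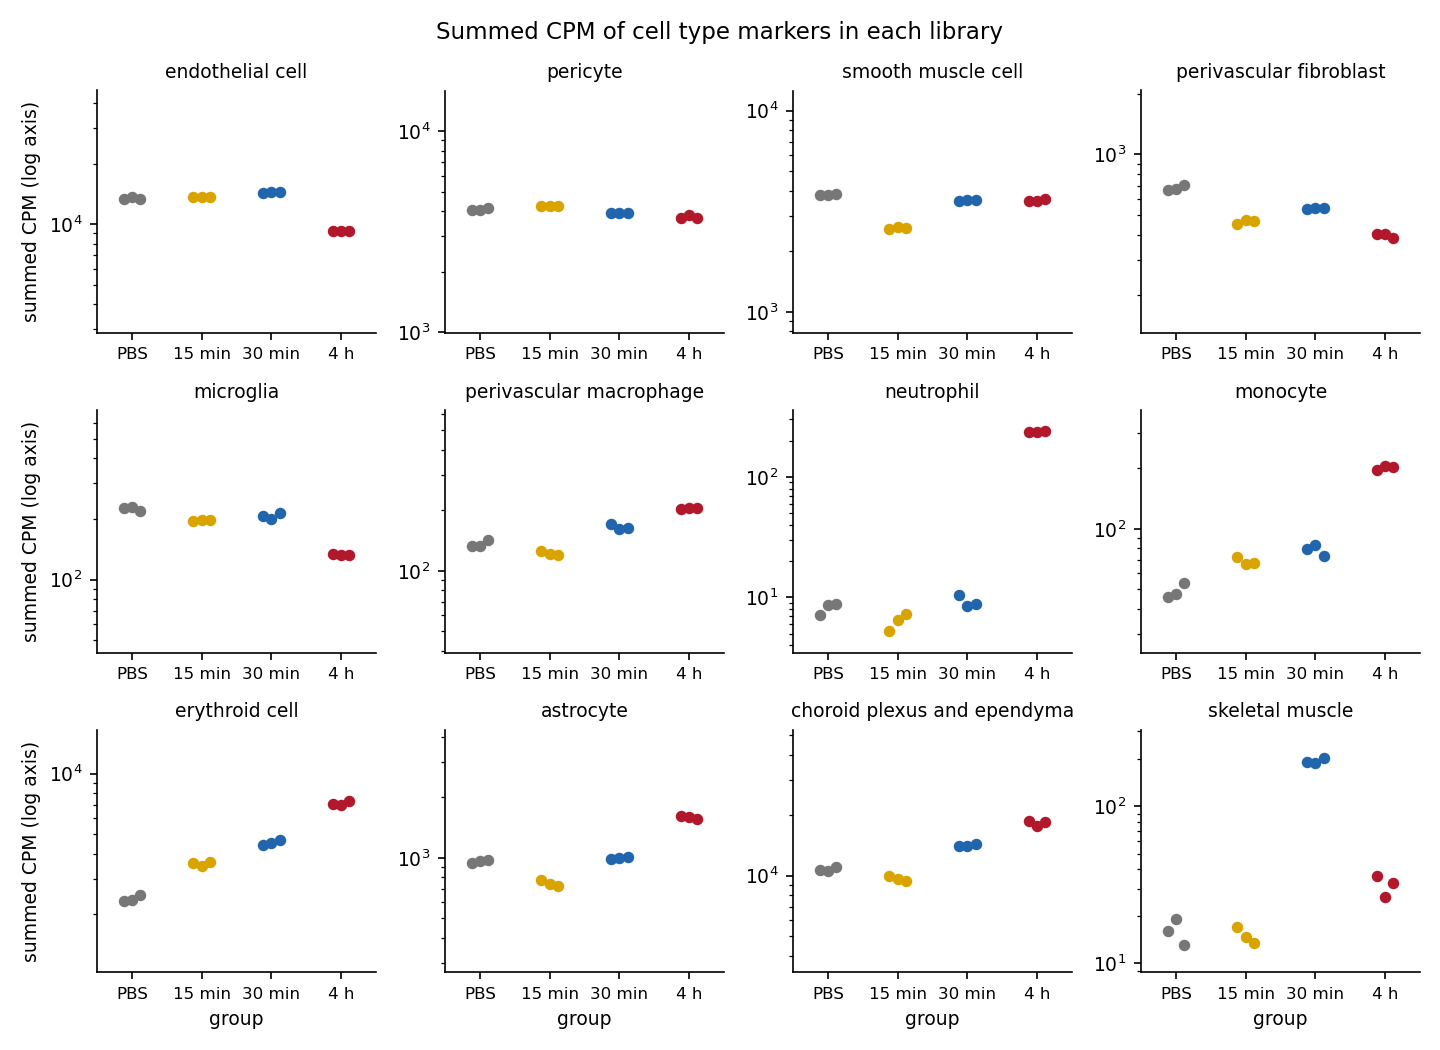
Summed CPM (vertical axes, log scale) of 12 cell type marker lists in each library (points) by group (horizontal axes). Neutrophil markers stand at 8.52 to 10.5 CPM at 30 min and at 235 to 239 CPM at 4 h, and skeletal muscle markers are highest at 30 min (188 to 204 CPM).

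Housekeeping groups depended on the scaling. Of 58 cytosolic ribosomal protein genes 1 was called, Rpl12 (1.21, SE 0.07), and the median was -0.06. Of 28 nuclear genes of oxidative phosphorylation 2 were called higher, among them Cycs (0.75), with a median of -0.04. Among 7 reference genes 1 was called higher, and their sum was 3448 to 3507 CPM in PBS, 5941 to 5973 CPM at 30 min, and 7716 to 7922 CPM at 4 h. Actb went from 3138 ± 2.31 to 3719 ± 57.3 CPM (0.25, SE 0.02), Gapdh differed by 0.45 (SE 0.02), and Rplp0 by 0.38 (SE 0.03), none of them past the test. With library size only 27 of the 58 ribosomal and 12 of the 28 oxidative phosphorylation genes were called lower and none higher. The reference median of 0.25 turned to -0.29 with library size only, as each change shifts by the same amount.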

How the data were processed

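The 6 libraries of LPS 30 min and LPS 4 h were grouped by their labels. The authors ran Salmon 1.2.1 (per the labels) and deposited, for 140948 transcripts of each library, estimated counts (fragments, not normalized) and TPM (scaled for transcript length by the authors). The gene table deposited by the authors holds a normalized signal, counts divided by DESeq2 size factors and transcript length factors, and served only in the limma alternatives. For each gene of GENCODE M21 (GRCm38) the estimates of its transcripts were added and rounded, and 1096 transcripts without a match, with 0.482% to 0.850% of the fragments, were left out. In R 4.3.3, edgeR 4.0.16 kept 19150 genes (filterByExpr, minimum count 10, total 15, share 0.7), all 12 libraries entered 1 quasi-likelihood fit with TMM factors, and glmTreat tested each gene for a change beyond 1.5-fold (Benjamini-Hochberg adjusted p below 0.05, two-sided). The SE is the log2 fold change divided by the root of the quasi-likelihood F of the test without a fold limit, and it can be too small where a large change rests on few counts. The common biological coefficient of variation was 0.0524. With 3 libraries against 3 no single gene could reach a permutation p below 0.1, so calls rest on spread pooled across genes, and on pools of mice that the labels describe as separate samples. All 3 LPS 30 min libraries shared the high skeletal muscle and low Xist levels given above. Differences in preparation between the groups cannot be told apart from the time after LPS, and the adjusted p does not measure them.

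The named genes were the 12 largest rises and 12 largest falls among called genes without overlap, with a protein-coding or lncRNA model and a mean count of 50 or more, the members of 41 gene lists and 17 marker lists, the 5 largest rises and falls of each 15 min list, and Actb, Gapdh, and Rplp0. The comparison, the lists, and the tests were chosen with earlier results of these data known. Single values of some members of the lists are not reported here. The calculations were tested on simulated data. Library numbers were not taken as pairs, since deviations from the group mean correlated at only 0.03 to 0.05 between equally numbered libraries. Between unequally numbered libraries the correlations were lower, -0.06 to 0.01, and counts with a replicate block are given below. Promoters came from RefSeq on GRCm38.p6. The alternatives used DESeq2 1.42.0 and limma 3.58.1, and tables and plots were made in Python 3.11.15 with pandas 2.3.3, numpy 2.4.6, and matplotlib 3.10.9.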

Additional observations from a re-analysis of the deposited data

How the results depend on the processing

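Counts of called genes moved by over 1.5 times in 3 settings. With library size only, 1917 genes were higher and 6931 lower; with no fold limit, 6114 and 6384; with calls kept only past 1.5 in log2 fold change, 1762 and 688. In the other settings the counts stayed within 1.5 times: DESeq2 gave 2834 and 1607, RLE factors 3285 and 2159, no filter on low counts 3162 and 2465, a transcript length offset 3004 and 2129, limma 2718 and 1731 with a pseudocount of 1 or 2646 and 1550 with 10, and leaving out each library in turn 3112 to 3153 and 2127 to 2226. Protein-coding genes alone, a setting chosen after seeing the data, gave 2765 and 1937. The fit with the replicate block gave 3158 and 2078, against 3208 and 2134 without the block on the same 6 libraries. None of the 5484 calls changed its sign in any of these settings where it was still called. Of 1003 named genes, 87 lost the call with library size only, 179 with the limit of 1.5, 31 and 35 with limma, 23 with DESeq2, and 6 to 13 when 1 library was left out. The median of the lists of MAPK phosphatases, mRNA decay, MHC class II, vascular tone, BMP, TGF-beta and S1P, cholesterol, constitutive proteasome, and reference genes, of the genes lowered at 15 min, and of the smooth muscle, perivascular macrophage, lymphocyte, astrocyte, and sex-linked markers turned negative with library size only, by the shift of 0.54 that this scaling gives. Depth limited genes such as Ifnb1 and Csf2, with 4 and 32 counts at 4 h, which passed no filter.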

Other observations

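Metabolic and stress genes moved in part. Of 25 genes of hypoxia, glycolysis, and NRF2, 12 were called higher and none lower (median 0.57), against 7 and 3 with library size only. Pfkfb3, which drives glycolysis, measured 104, 106, and 104 CPM at 30 min and 2578, 2590, and 2591 CPM at 4 h (4.63, SE 0.03, adjusted p = 3.04e-30), Hif1a rose from 78.2 ± 1.09 to 733 ± 17.0 CPM (3.23, SE 0.03), and Hmox1 rose by 2.48. Of the hypoxia targets Hk2 (3.01), Ldha (0.96), and Pgk1 (0.81) were called higher and Vegfa (0.02), Egln3 (0.19), and Bnip3 (-0.17) were not called. Of 24 ATF4 and unfolded protein genes 11 were called higher and 2 lower (median 0.54), against 7 and 6 with library size only, with the largest rises in Mthfd2 (3.30) and Chac1 (3.03). Of the endoplasmic reticulum chaperones and cofactors Hspa5 rose (0.77), Pdia4 (-0.86) and Creld2 (-0.85) fell, and Hsp90b1, Hyou1, and Manf were not called. Of 24 ribosome biogenesis genes 17 were called higher and none lower (median 0.99), against 7 with library size only, and Nop58 rose from 27.6 ± 0.92 to 106 ± 3.66 CPM (1.94, SE 0.06). Of 27 constitutive proteasome subunits 6 were called higher (median 0.41), against 1 higher and 1 lower with library size only. The 22.2% called higher lay near the 16.9% of all genes. Of 26 cholesterol genes 3 were called higher and 3 lower, against 1 and 10 with library size only. With TMM scaling both shares were 11.5%, against 16.9% higher and 11.8% lower over all genes. The efflux pump Abca1 had the largest change (2.38). Mitochondrial transcripts were 7.65% to 8.05% of the fragments at 30 min and 9.23% to 9.49% at 4 h, and 10 of 15 genes of that chromosome were called higher.

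Cell death genes were called higher in 22 of 29 and lower in 1 (median 1.86), against 21 and 5 with library size only. Casp4, which senses LPS inside the cell, measured 9.36, 10.5, and 10.8 CPM at 30 min and 355, 343, and 329 CPM at 4 h (5.07, SE 0.08, adjusted p = 4.06e-23), and Mlkl, the effector of necroptosis, rose by 4.95 (SE 0.08). Inhibitors of death rose too, among them Birc3 (3.53, SE 0.05) and Cflar (2.73). Bbc3, which promotes apoptosis, was called lower (-0.77, SE 0.10, adjusted p = 0.0374) but lost the call in at least 1 alternative. In the list of BMP, TGF-beta, and S1P genes 9 of 26 were called higher and 7 lower (median 0.22), against 5 and 9 with library size only. With TMM scaling the shares were 34.6% higher and 26.9% lower, against 16.9% and 11.8% of all genes. Sphk1, which makes S1P, went from 22.4 ± 0.68 to 253 ± 2.08 CPM (3.5, SE 0.05), and the exporter Spns2 fell by 1.32. The BMP target Id1 fell from 726 ± 7.68 to 222 ± 12.8 CPM (-1.71, SE 0.03), and Smad6, an inhibitor of BMP signaling, fell by 2.03 (SE 0.04), while the ligand Bmp2 rose by 2.05 and Id3 by 0.99, the last not called with library size only.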
